A study of Mus musculus with 10 samples.

Results

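The 36 genes described here encode the autophagy machinery and the receptors that hand cargo, mitochondria included, to it. They were chosen by symbol from the deposited expression table, and all 36 were found among its 19703 genes. RNA-seq was run on left ears of mice painted with MC903 (calcipotriol, an analogue of vitamin D used to inflame mouse skin and cause itch) once a day for 7 days and again on day 8. On day 8 the antagonist group, 5 libraries, was gavaged with GSK1562590, which blocks the urotensin II receptor, at a dose of 5 mg/kg in a volume of 100 µl, and the vehicle group, 5 libraries, received the same volume without drug. Both groups carried MC903, no ear without it was analysed here, and skin was taken on day 13. The labels give neither strain, sex nor age, and they do not tie each library to its own mouse, so the p-values cover only the spread between these libraries, which may be technical. The libraries held 20183024 to 20606007 expected counts (estimated reads per gene that need not be whole). Where values are listed library by library, antagonist replicates are in the order 4, 6, 7, 8 and 10 and vehicle replicates in the order 3, 9, 10, 11 and 12.

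Autophagy encloses part of the cytoplasm in a double membrane and delivers it to the lysosome. The ULK1 kinase complex starts the process, the lipid kinase VPS34 with Beclin 1 marks the site with phosphatidylinositol 3-phosphate, and ATG2 and WIPI proteins feed and anchor the growing membrane. A conjugation system related to ubiquitin ligation then couples the small ATG8 proteins (LC3 and GABARAP families) to the membrane lipid phosphatidylethanolamine. Receptors such as p62 bind both ubiquitinated cargo and ATG8 proteins, while BNIP3, BNIP3L and FUNDC1 sit in the outer mitochondrial membrane and mark mitochondria for removal. Transcription of many of these genes is known to respond to FoxO factors, to TFEB, and for BNIP3 to hypoxia-inducible factor. In epidermis, autophagy takes part in the terminal differentiation of keratinocytes. Messenger RNA levels do not measure autophagic flux.

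Promoter sequence is shown first for 3 members that share the letters CACGTG, an E-box that also holds the core of the hypoxia response element. RefSeq promoters (build GRCm38.p6) were matched by symbol for 29 of the 36 members, and the 250 bases before each transcription start were searched on both strands. CACGTG was present before a start of 4 members, namely Bnip3, Atg3, Atg5 and Atg7. This was 12.5% of the 32 member promoters, against 6.02% of all 32851 promoters, and the difference was not tested. Atg3 held it at 2 places, and its window, which includes 2 exonic bases, is not printed. In capitals below is CACGTG, which begins 108 bases before the RefSeq start used in Bnip3, 14 bases before it in Atg5 and 132 bases before it in Atg7. The starts used for Atg5 and Atg7 are internal. On the plus strand the Atg5 gene begins at chr10:44267744 and the Atg7 gene at chr6:114643097. The bases before these outer gene starts were not searched. Starts used for some other members, among them Gabarapl1, Atg4c and Sqstm1, also lie inside the gene, so the motif counts do not cover every outer start. Windows lie at chr7:138909594-138909644 on the minus strand for Bnip3, chr10:44268295-44268338 on the plus strand for Atg5 and chr6:114670934-114670984 on the plus strand for Atg7.
Bnip3: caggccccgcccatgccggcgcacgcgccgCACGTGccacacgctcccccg
Atg5: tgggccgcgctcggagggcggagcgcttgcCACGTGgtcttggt
Atg7: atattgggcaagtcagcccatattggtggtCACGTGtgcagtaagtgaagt
The 4 genes with these letters did not move alike, since Bnip3 was called higher, Atg5 was called lower, and Atg3 and Atg7 were not called. The shorter letters ACGTG, which CACGTG contains, were found in promoters of 11 members. This was 34.4% of the 32 member promoters, against 16.6% of all promoters, again not tested. The forkhead letters GTAAACA were found in promoters of 0 of the 29 members and in 3.17% of all promoters. TCACGTGA, the core of the TFEB element, was found in 1 member, Atg3. This was 3.12% of the member promoters, against 0.785% of all promoters. A match is a description of the letters in this window and not evidence of binding.

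The comparison asked how the urotensin II receptor antagonist altered gene expression in MC903 ear skin. Antagonist ears had higher mRNA of 3 of 5 initiation genes, 2 of 4 lipid kinase genes, 3 of 4 membrane genes, 2 of 10 conjugation genes, 4 of 5 ATG8 genes, 2 of 4 ubiquitin-binding receptor genes and 2 of 4 mitophagy genes, and differences between these roles were not tested. Largest among the members was the rise of the mitophagy receptor Bnip3, at 2.76-fold, followed by the ATG8 gene Gabarapl1, at 2.06-fold. By edgeR's quasi-likelihood test with adjustment across the whole table, 18 of 36 members were called higher, 2 were called lower and 16 were not called at an adjusted p under 0.05. Of 15174 tested genes, 16.7% were called higher and 17.4% lower, 34.1% in all. The members were chosen with earlier results of these data known, so their shares describe the list and are not a test. The members' share of 50.0% higher was above that of all tested genes and their share of 5.56% lower was below it. Their median log2 fold change was 0.21, and the median over all tested genes was −0.0002. In 16 members all antagonist libraries lay above all vehicle libraries, which held for 10.0% of tested genes, and in 0 members did all antagonist libraries lie below, against 10.8% of tested genes.

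**Figure D1:**
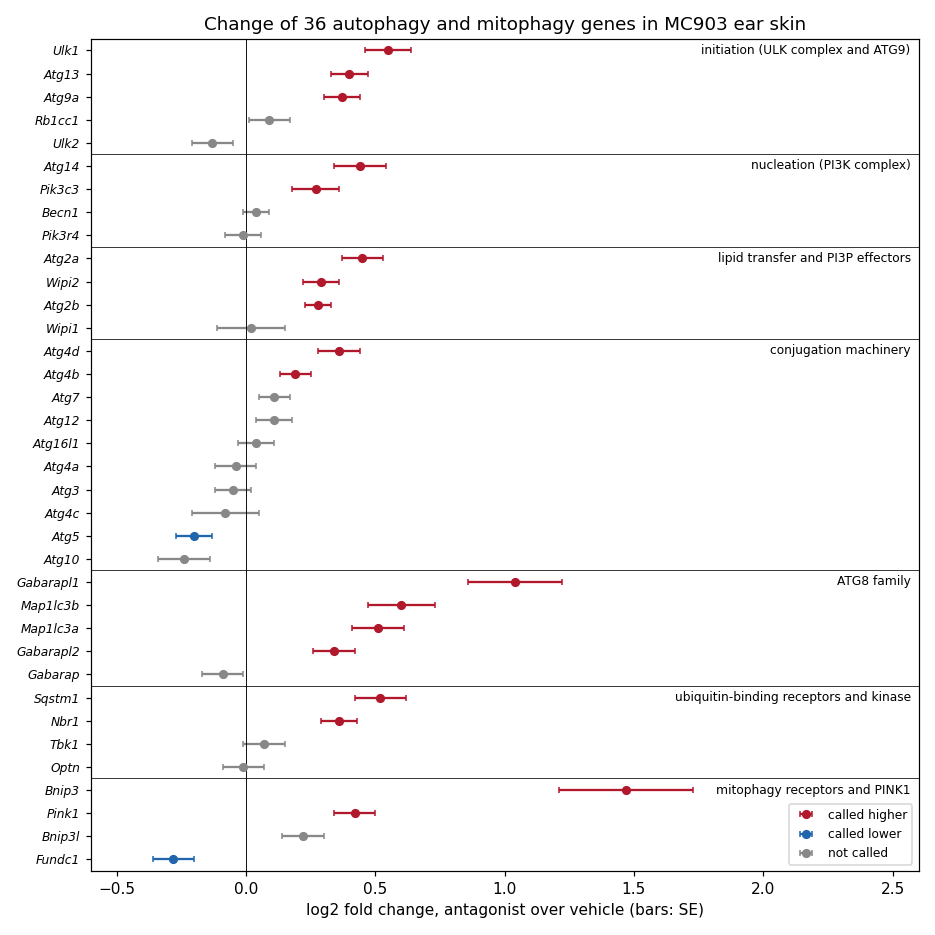
Log2 fold change of each of the 36 members, antagonist over vehicle, on the horizontal axis with SE bars, with genes grouped by role down the page and coloured by the call at an adjusted p under 0.05 by edgeR. Bnip3 at 1.47 and Gabarapl1 at 1.04 stand farthest to the right, and Fundc1 at −0.28 farthest to the left.

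Marker mRNA of several other cell types differed between the groups beside these genes. Of all tested genes 16.7% were called higher and 17.4% lower, as given above. Summed CPM (counts scaled to library size with TMM factors) of the cartilage markers ranged from 505 to 915 in antagonist libraries, against 907 to 1636 in vehicle libraries, and 11 of 14 tested cartilage markers were called lower, with Acan, Sox9 and Chad not called. Fibroblast markers summed to 4322 to 7503 CPM in antagonist and 10967 to 19573 CPM in vehicle libraries, with 8 of 11 lower and Pdgfra, Pdgfrb and Fbln1 not called, and leukocyte markers to 1678 to 2223 CPM in antagonist and 2321 to 3696 CPM in vehicle libraries, with 10 of 12 lower. Of 5 tested red blood cell markers 4 were lower. None of the marker genes was at 0 in every library. Keratinocyte markers, which check the labelled tissue, summed to 24655 to 33554 CPM in antagonist and 22863 to 37301 CPM in vehicle libraries, with 3 of 11 higher. Skeletal muscle markers ranged from 1412 to 3009 CPM in antagonist and 1137 to 2602 CPM in vehicle libraries, with 1 of 15 higher, and adipocyte markers from 1133 to 1849 CPM in antagonist and 732 to 1113 CPM in vehicle libraries, with 3 of 10 higher. The adipocyte markers were split, since Pnpla2, Plin4 and Lpl were called higher while the log2 fold changes of Adipoq, Retn, Plin1 and Lep ran from −1.93 to −0.48 and were not called, and the mean log2 CPM of the list was 5.45 ± 0.64 in antagonist and 5.68 ± 0.24 in vehicle libraries (SD, n = 5 each). In whole skin, fewer cells of a type and less RNA per cell cannot be told apart. A cartilage score (mean log2 CPM of its markers) was 2.95 to 4.83 in antagonist and 4.98 to 5.97 in vehicle libraries. Since the groups did not overlap in it, a fit with this score as a covariate cannot separate score from group. With it, edgeR called 0 members and 0 genes, while 6 members and 1795 genes had an unadjusted p under 0.05. All 18 members called higher kept a positive sign in that fit, with a median log2 fold change of 0.29, against 0.41 without the covariate, and their median SE was 0.14, against 0.0825 without it. In that fit the log2 fold change was 0.58 for Bnip3, 0.32 for Gabarapl1, 0.29 for Atg14, 0.21 for Gabarapl2, 0.19 for Map1lc3b, 0.13 for Map1lc3a and Nbr1, 0.12 for Sqstm1 and Atg4b, 0.07 for Pik3c3 and −0.06 for Fundc1, each nearer to 0 than without the covariate. Not all called members moved as far. Without and with the cartilage covariate the log2 fold change was 0.40 and 0.39 for Atg13, 0.37 and 0.31 for Atg9a, and 0.55 and 0.39 for Ulk1. Pink1 kept its value, as given below, and the remaining called members are not listed. With the skeletal muscle list as covariate, 17 members were called higher and 1 lower.

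Among the 5 initiation genes 3 rose and 2 were not called. Ulk1, the kinase that starts autophagy, had 104, 120, 114, 146 and 125 CPM in antagonist libraries, against 76.3, 79.6, 89.6, 91.6 and 80.0 CPM in vehicle libraries. The groups did not overlap, and antagonist replicate 8 was highest. Its log2 fold change was 0.55 ± 0.09 (SE, adjusted p = 0.00206 by edgeR). Atg13, the adaptor that links ULK1 to its partners, had 73.1, 85.5, 73.0, 80.0 and 76.7 CPM in antagonist libraries, against 55.6, 54.6, 57.1, 62.5 and 65.3 CPM in vehicle libraries. It rose 1.32-fold (log2 fold change 0.40 ± 0.07 SE), again with no overlap. Atg9a, a lipid scramblase carried on the vesicles that seed the membrane, had 72.9, 77.6, 69.4, 80.8 and 77.5 CPM in antagonist libraries and 52.4, 54.6, 64.2, 59.7 and 61.4 CPM in vehicle libraries, a log2 fold change of 0.37 ± 0.07. The coefficient of variation among antagonist libraries was 12.8% for Ulk1, 6.77% for Atg13 and 5.93% for Atg9a. Rb1cc1, the FIP200 scaffold of the complex, stood at 77.9 ± 7.37 CPM in antagonist and 72.9 ± 7.01 CPM in vehicle libraries (SD, n = 5 each), and Ulk2, the second ULK kinase, at 36.4 ± 3.40 CPM in antagonist and 40.0 ± 2.83 CPM in vehicle libraries, neither past the threshold.

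In the lipid kinase complex 2 of 4 genes rose. Atg14, the subunit that directs VPS34 to autophagy, had 15.1, 19.6, 17.8, 20.6 and 20.7 CPM in antagonist libraries, against 14.3, 12.8, 12.2, 14.9 and 15.1 CPM in vehicle libraries. Antagonist replicate 4 and vehicle replicate 12 were level to 3 digits, and the other antagonist libraries lay above every vehicle library. The log2 fold change of Atg14 was 0.44 ± 0.10 (SE, adjusted p = 0.00876 by edgeR). Pik3c3, which encodes VPS34, rose by 0.27 ± 0.09 (log2, SE; adjusted p = 0.0382 by edgeR), with overlapping groups. Pik3c3 lost its call in 7 of 10 fits that each left out a library, the adjusted p by edgeR reaching 0.087. Becn1 (Beclin 1), at 93.1 ± 3.91 CPM in antagonist and 90.6 ± 4.30 CPM in vehicle libraries, and the regulatory subunit Pik3r4, at 20.9 ± 1.05 CPM in antagonist and 21.1 ± 1.5 CPM in vehicle libraries (SD, n = 5 each), did not pass.

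Of the 4 genes that feed or anchor the membrane 3 rose. Atg2a, a lipid transfer protein, had 61.6, 75.6, 67.1, 78.6 and 70.2 CPM in antagonist libraries, against 46.9, 48.0, 53.9, 58.3 and 50.8 CPM in vehicle libraries. Its log2 fold change was 0.45 ± 0.08 (SE, adjusted p = 0.00288 by edgeR), and the groups did not overlap. Its paralog Atg2b stood at 43.7 ± 1.58 CPM in antagonist and 36 ± 1.91 CPM in vehicle libraries, and Wipi2, which binds the marked membrane and recruits the conjugation enzymes, at 78.3 ± 2.14 CPM in antagonist and 64.1 ± 6.44 CPM in vehicle libraries (SD, n = 5 each). Both rose without overlap, by log2 fold changes of 0.28 ± 0.05 and 0.29 ± 0.07 (SE). Wipi1, another reader of the same lipid, ranged from 28.7 to 49.8 CPM in antagonist libraries and from 33.0 to 37.6 CPM in vehicle libraries and was not called.

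Of the conjugation genes 2 of 10 were higher, 1 was lower and 7 were not called. Their median log2 fold change was 0.00, and the share called higher was near the 16.7% of all genes. Atg4d, a protease that processes ATG8 proteins, had 33.9, 33.2, 34.4, 29.4 and 32.1 CPM in antagonist libraries, against 22.3, 25.2, 29.9, 26.0 and 23.4 CPM in vehicle libraries. It rose by 0.36 ± 0.08 (log2, SE), although vehicle replicate 10 lay above antagonist replicate 8. Atg4b, the main protease of this family, had 41.7, 50.1, 43.4, 42.4 and 44.3 CPM in antagonist libraries and 37.8, 37.6, 38.6, 38.9 and 41.6 CPM in vehicle libraries. The change of Atg4b was small, at 0.19 ± 0.06 (log2, SE; edgeR adjusted p = 0.0348), and the call was lost without any one of 6 libraries. Atg5, which joins ATG12 to form the enzyme that attaches ATG8 proteins, had 40.0, 41.6, 41.1, 43.3 and 36 CPM in antagonist libraries, against 50.1, 46.0, 47.3, 42.2 and 45.6 CPM in vehicle libraries. It fell by 0.20 ± 0.07 (log2, SE; adjusted p = 0.039 by edgeR), with vehicle replicate 11 inside the antagonist range, and lost the call without any one of 8 libraries. The activating enzyme Atg7, the E2-like enzymes Atg3 and Atg10, the modifier Atg12, its partner Atg16l1 and the proteases Atg4a and Atg4c had log2 fold changes of −0.24 to 0.11 and did not pass. Atg4c varied more among antagonist libraries, from 8.37 to 14.9 CPM, than among vehicle libraries, from 11.8 to 12.8 CPM.

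Genes of the ATG8 family rose in 4 of 5 cases. Gabarapl1 had 97.0, 217, 131, 202 and 181 CPM in antagonist libraries, against 81.5, 79.7, 81.4, 83.2 and 76.3 CPM in vehicle libraries. Every antagonist library lay above every vehicle library, antagonist replicates 4 and 7 were the nearest to the vehicle range, and the vehicle libraries were tightly grouped. The log2 fold change of Gabarapl1 was 1.04 ± 0.18 (SE, adjusted p = 0.00264 by edgeR), between 0.93 and 1.19 when each library was left out and 0.32, not called, with the cartilage covariate (adjusted p = 0.633 by edgeR). Map1lc3b, the LC3B gene whose product is the usual marker of autophagosomes, had 259, 418, 335, 458 and 376 CPM in antagonist libraries, against 256, 237, 254, 242 and 229 CPM in vehicle libraries. Antagonist replicate 4 was just above the highest vehicle library, and the log2 fold change was 0.60 ± 0.13 (SE). The LC3A gene Map1lc3a had 133, 195, 157, 164 and 185 CPM in antagonist libraries and 107, 131, 113, 119 and 114 CPM in vehicle libraries, a rise of 0.51 ± 0.10 (log2, SE). Gabarapl2 (GATE-16) had 150, 176, 166, 139 and 150 CPM in antagonist libraries and 121, 123, 139, 118 and 115 CPM in vehicle libraries, a rise of 0.34 ± 0.08, with antagonist replicate 8 and vehicle replicate 10 level to 3 digits. Gabarap itself was not called, at 379 ± 31.0 CPM in antagonist and 405 ± 39.0 CPM in vehicle libraries (SD, n = 5 each), a log2 fold change of −0.09 ± 0.08 (SE).

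**Figure D2:**
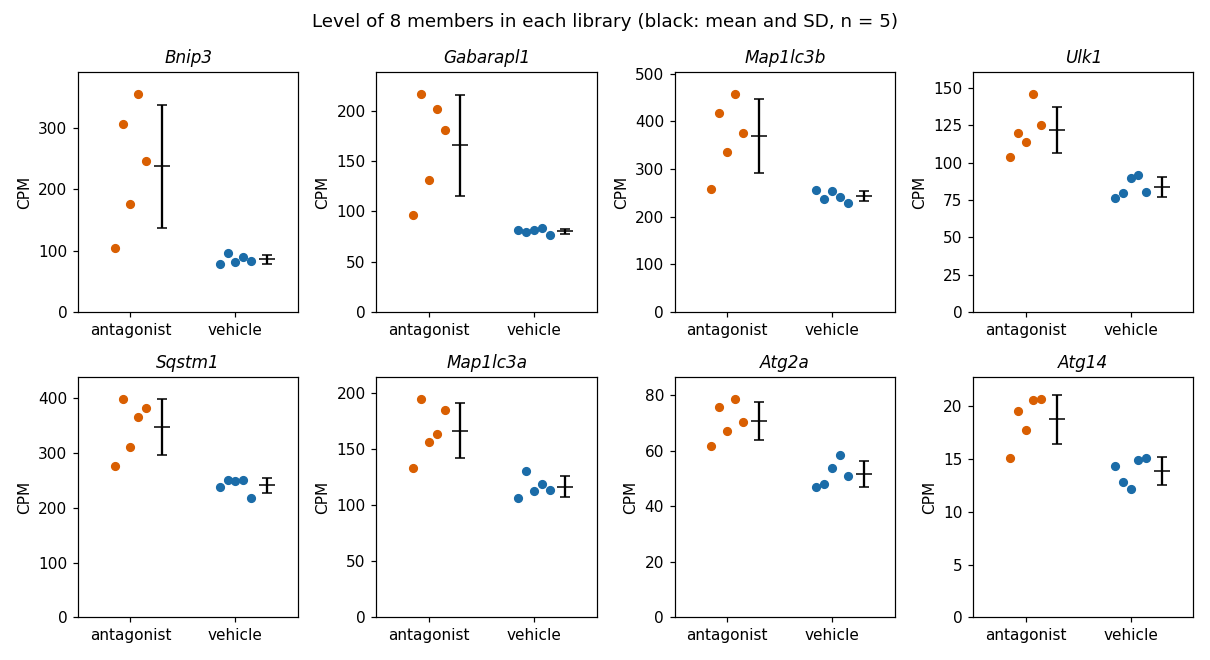
CPM of 8 members in each library, antagonist left and vehicle right, with the group mean and SD in black (n = 5 each). For Bnip3 the antagonist libraries run from 105 to 355 CPM, against 78.1 to 95.7 CPM in vehicle libraries.

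Of the ubiquitin-binding receptors and their kinase, 2 of 4 rose. Sqstm1, which encodes p62, had 276, 398, 311, 365 and 381 CPM in antagonist libraries, against 238, 250, 249, 250 and 218 CPM in vehicle libraries. The groups did not overlap, and the log2 fold change was 0.52 ± 0.10 (SE, adjusted p = 0.00331 by edgeR). Nbr1, a receptor that acts with p62, had 122, 146, 116, 140 and 135 CPM in antagonist libraries and 108, 106, 107, 99.7 and 93.3 CPM in vehicle libraries. It rose by 0.36 ± 0.07 (log2, SE), again without overlap. Optn, the optineurin gene of mitophagy and bacterial clearance, at 14.9 ± 1.28 CPM in antagonist and 15.0 ± 1.18 CPM in vehicle libraries, and Tbk1, the kinase that activates such receptors, at 38.2 ± 4.40 CPM in antagonist and 36.3 ± 2.30 CPM in vehicle libraries (SD, n = 5 each), were not called.

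The mitophagy genes moved in both directions. Bnip3, on chromosome 7 from 138890836 to 138909506 (GRCm38), had 105, 306, 175, 355 and 245 CPM in antagonist libraries, against 78.1, 95.7, 82.1, 89.5 and 83.8 CPM in vehicle libraries. All antagonist libraries lay above all vehicle libraries, with antagonist replicate 4 nearest to the vehicle range and replicate 8 the highest. Its log2 fold change of 1.47 ± 0.26 (SE, adjusted p = 0.00285 by edgeR) stayed between 1.27 and 1.65 when each library was left out, and was 0.58, not called, with the cartilage covariate (adjusted p = 0.611 by edgeR). Pink1, the kinase that labels damaged mitochondria, had 213, 244, 235, 252 and 196 CPM in antagonist libraries, against 171, 186, 160, 175 and 161 CPM in vehicle libraries. It rose by 0.42 ± 0.08 (log2, SE; adjusted p = 0.00328 by edgeR) without overlap, and its log2 fold change was 0.42 with the cartilage covariate too, though not called there. Bnip3l (NIX), the paralog of Bnip3 that clears mitochondria from maturing red cells, had 309, 383, 332, 342 and 333 CPM in antagonist libraries and 309, 266, 331, 285 and 263 CPM in vehicle libraries. Its log2 fold change of 0.22 ± 0.08 just missed the threshold (adjusted p = 0.0514 by edgeR). Fundc1 had 37.4, 33.0, 33.9, 29.7 and 29.3 CPM in antagonist libraries, against 43.5, 39.1, 36.7, 38.9 and 40.4 CPM in vehicle libraries. It fell by 0.28 ± 0.08 (log2, SE; adjusted p = 0.0176 by edgeR), with antagonist replicate 4 above vehicle replicate 10, and the call was lost without vehicle replicate 3 (adjusted p = 0.0529 by edgeR).

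Related members were then compared within each library, so that library size cancels. For 9 pairs the log2 ratio of CPM was tested between groups by exact permutation (two-sided, 252 assignments of the libraries), with Benjamini-Hochberg adjustment over the 9 pairs. The ratio of Ulk1 to Ulk2 was 1.74 ± 0.26 in antagonist and 1.06 ± 0.19 in vehicle libraries (SD, n = 5 each, exact p = 0.00794, adjusted 0.0357), a difference of 0.68. The ratio of Gabarapl1 to Gabarap was −1.25 ± 0.52 in antagonist and −2.33 ± 0.14 in vehicle libraries, a difference of 1.07 with the same exact p, which is the smallest that 5 against 5 can give. Both ratios were higher in every antagonist library than in any vehicle library. For Bnip3 over Bnip3l the ratio was −0.64 ± 0.62 in antagonist and −1.76 ± 0.23 in vehicle libraries (exact p = 0.0159, adjusted 0.0476), with overlapping groups. These 3 pairs passed, so the change differed between the paralogs in each. When 1 vehicle library other than replicate 9 was left out, each of these 3 pairs had an adjusted exact p of 0.0714. The other 6 pairs did not pass, with differences from −0.30 to 0.64 on the log2 scale, among them Gabarapl1 over Gabarapl2 (0.64, adjusted exact p = 0.0714) and Map1lc3a over Map1lc3b (−0.07, adjusted exact p = 0.556).

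**Figure D3:**
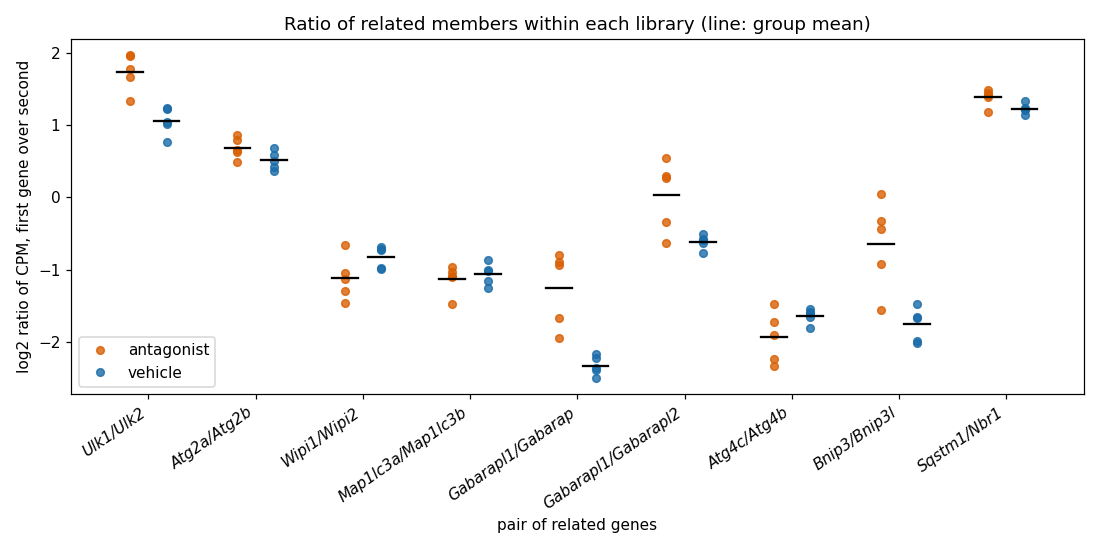
Log2 ratio of CPM of 9 pairs of related members in each library, antagonist left and vehicle right within a pair, with a line at the group mean. The antagonist libraries lie above all vehicle libraries for Ulk1 over Ulk2 and for Gabarapl1 over Gabarap.

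Levels were compared between genes in TPM, which allows for gene length. Gabarap was the most abundant member, at 583 ± 33.8 TPM in antagonist and 628 ± 38.6 TPM in vehicle libraries (SD, n = 5 each). In vehicle libraries Gabarapl2, at 221 ± 13.5 TPM, Sqstm1, at 204 ± 17 TPM, and Map1lc3a, at 196 ± 22.9 TPM, followed within each other's spread. Bnip3, at 84.2 ± 10.3 TPM, Gabarapl1, at 77.9 ± 4.53 TPM, and Becn1, at 76.9 ± 2.51 TPM, were also close to each other in vehicle libraries. In antagonist libraries Bnip3 reached 228 ± 94.8 TPM and Gabarapl1 158 ± 46.1 TPM, and Becn1 stood at 78.8 ± 3.57 TPM. The least abundant members in antagonist libraries were Atg10, at 6.11 ± 0.30 TPM, Atg4c, at 6.81 ± 1.65 TPM, and Pik3r4, at 7.15 ± 0.639 TPM, against 7.34 ± 0.432, 7.20 ± 0.485 and 7.30 ± 0.841 TPM in vehicle libraries. Of the summed TPM of the ATG8 family, Gabarap made up 37.9% ± 4.04 in antagonist and 48.6% ± 2.52 in vehicle libraries, and Gabarapl1 10.1% ± 2.41 in antagonist and 6.03% ± 0.298 in vehicle libraries (SD, n = 5 each).

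**Figure D4:**
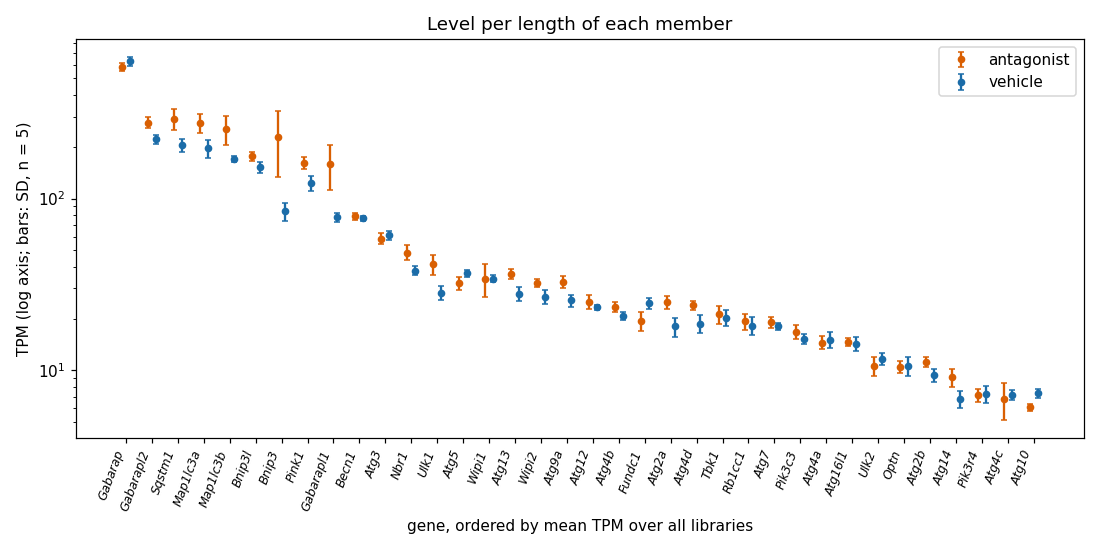
Mean TPM of each member on a log axis with SD bars (n = 5 each), antagonist left of vehicle for each gene, ordered by the mean over all libraries. Gabarap lies highest, at 583 TPM in antagonist and 628 TPM in vehicle libraries, and Bnip3 and Gabarapl1 show the widest gaps between groups.

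The coefficient of variation was larger among antagonist than among vehicle libraries for 25 of 36 members, 69.4%, near the 59.1% of all tested genes. It was 42.2% in antagonist and 8.00% in vehicle libraries for Bnip3, and 30.4% in antagonist and 3.26% in vehicle libraries for Gabarapl1. Of the 18 members called higher, antagonist replicate 6 held the highest value of all libraries in 8 and antagonist replicate 8 in 8, while antagonist replicate 4 was the lowest antagonist library in 9. The same was not counted over all genes called higher, so this order is not shown to be particular to the members. Replicate 4 also had the highest cartilage score of its group, a mean log2 CPM of 4.83, against 2.95 to 4.11 in the other antagonist libraries and 4.98 to 5.97 in vehicle libraries. Its fibroblast score was 8.49, against 7.81 to 8.15 in the other antagonist libraries and 8.90 to 9.44 in vehicle libraries. Replicate 4 was at an end of its group in the remaining marker lists too. Its leukocyte (6.84), red blood cell (5.53) and adipocyte (5.91) scores were the highest, and its skeletal muscle (5.65) and keratinocyte (9.64) scores the lowest. The lowest cartilage score, 2.95, was that of antagonist replicate 10, which held the highest value of all libraries in 1 member. The part of these scores in the members' spread was not tested. Without replicate 4, 19 members were called higher and 1 lower.

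**Figure D5:**
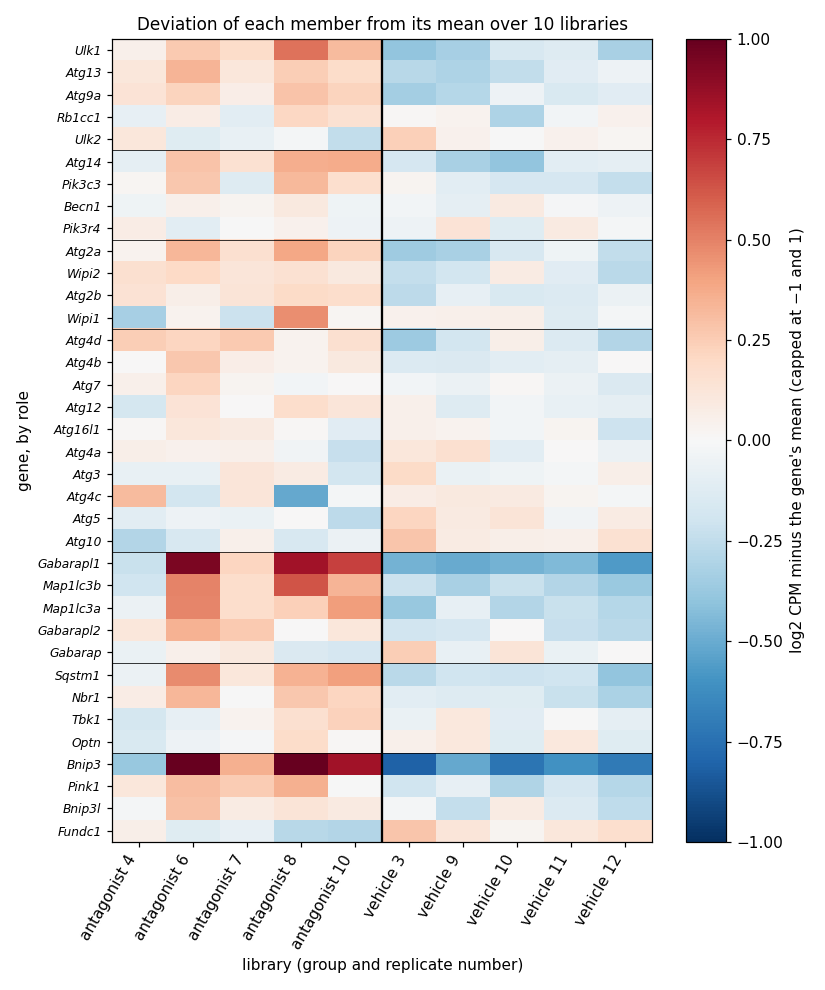
Log2 CPM of each member minus its mean over the 10 libraries (colour, capped at −1 and 1), with antagonist libraries left of the black line, vehicle libraries right of it and genes grouped by role. Bnip3 and Gabarapl1 are deepest in antagonist replicates 6, 8 and 10 and pale or reversed in antagonist replicate 4.

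Other genes of the pathway were counted from lists chosen for their function, with earlier results of these data known. In the list of other autophagy machinery 7 of 26 tested genes rose and 1 fell, or 26.9% and 3.85%. Of all tested genes 16.7% rose and 17.4% fell. The genes with the smallest p were Atg9b, the second ATG9 gene, at 86.1 ± 16.6 CPM in antagonist and 44.7 ± 6.30 CPM in vehicle libraries, Ambra1, a Beclin 1 partner, with a log2 fold change of 0.31 ± 0.06, and Wdr45 (WIPI4), with 0.58 ± 0.12 (SE). Other selective autophagy receptors rose in 7 of 14 cases, 50.0%, and fell in 0. Calcoco1, a receptor for endoplasmic reticulum and Golgi, stood at 106 ± 15.8 CPM in antagonist and 60.9 ± 5.56 CPM in vehicle libraries, and Retreg1 (FAM134B), a receptor of endoplasmic reticulum sheets, at 114 ± 31.7 CPM in antagonist and 61.2 ± 8.06 CPM in vehicle libraries (SD, n = 5 each). Tex264, a further receptor of this kind, rose by 0.40 ± 0.08 (log2, SE). Other mitophagy genes rose in 4 of 16 cases, 25.0%, and fell in 0. Those with the smallest p were Ambra1, which is also in the machinery list, and the deubiquitinases Usp30 (0.32 ± 0.09) and Usp8 (0.15 ± 0.05, log2, SE).

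Of 30 tested lysosome genes 2 rose and 8 fell, or 6.67% and 26.7%, against 16.7% and 17.4% of all tested genes. Their median log2 fold change was −0.01, and a difference from the machinery genes was not tested. Ctns, the cystine exporter, stood at 69.0 ± 11.7 CPM in antagonist and 38.3 ± 7.30 CPM in vehicle libraries, while the hydrolases Hexa, at 80.0 ± 17.2 CPM in antagonist and 125 ± 13.9 CPM in vehicle libraries, and Asah1, at 161 ± 16.7 CPM in antagonist and 206 ± 22.9 CPM in vehicle libraries (SD, n = 5 each), fell. Several lysosomal enzymes are abundant in macrophages, and the leukocyte markers were lower beside them, as given above; their part in these falls was not tested. Among the 15 tested transcription factors linked to autophagy 6 rose and 1 fell, or 40.0% and 6.67%, against 16.7% and 17.4% of all tested genes. Foxo4 rose by 0.45 ± 0.07 and Foxo1 by 0.61 ± 0.15, while Tfec, a TFEB relative known from macrophages, fell by 0.86 ± 0.21 (log2, SE). 3 further genes of this list were named after their values were seen. Tfeb, at 20.6 ± 1.98 CPM in antagonist and 21.3 ± 2.63 CPM in vehicle libraries, and Hif1a, at 370.0 ± 54.5 CPM in antagonist and 353 ± 38.7 CPM in vehicle libraries, were not called. Epas1 (HIF-2 alpha), at 273 ± 17.6 CPM in antagonist and 231 ± 23.1 CPM in vehicle libraries (SD, n = 5 each), rose by 0.24 ± 0.08 (log2, SE; adjusted p = 0.033 by edgeR).

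Regulators of mTORC1 and AMPK, the kinases that restrain and activate ULK1, rose in 11 of 30 cases, 36.7%, and fell in 0. Of all tested genes 16.7% rose and 17.4% fell. Ddit4 (REDD1), an inhibitor of mTORC1, had 143, 300, 213, 291 and 221 CPM in antagonist libraries, against 75.1, 125, 116, 104 and 87.3 CPM in vehicle libraries. Sesn1, a sestrin that senses amino acids, had 49.6, 99.6, 59.4, 133 and 84.1 CPM in antagonist libraries, against 40.8, 41.6, 39.7, 44.5 and 40.4 CPM in vehicle libraries. In both genes the groups did not overlap and antagonist replicate 4 was the lowest of its group, as in Bnip3 and Gabarapl1. Their log2 fold changes were 1.20 ± 0.20 and 1.04 ± 0.22 (SE, adjusted p of 0.00215 and 0.00581 by edgeR). Stk11 (LKB1), which activates AMPK, rose by 0.24 ± 0.06. The list also holds genes of both kinases themselves, so its counts mix opposite roles. Mtor, the kinase of mTORC1, was called higher too, by 0.19 ± 0.06 (log2, SE, adjusted p = 0.0221 by edgeR). The sestrin genes Sesn2 (0.37 ± 0.13) and Sesn3 (−0.23 ± 0.24) were not called. Mtor, Sesn2 and Sesn3 were named after their values were seen.

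The authors' deposited table of DESeq2 results, in which a positive log2 fold change means higher in antagonist ears, listed 19 members as higher and 2 as lower at a q-value under 0.05. In the authors' deposited table the log2 fold change of Bnip3l had a q-value of 0.0279, below 0.05, while edgeR did not call it. Exons of several members overlap those of other genes in the GENCODE annotation of GRCm38, and the library protocol in the labels names no step that keeps the strand. The overlap with a gene on the other strand covered 43.9% of the annotated exonic bases of Becn1 (Cntd1), 28.3% of Gabarapl1 (1700101I11Rik), 22.3% of Bnip3 (Gm45507), 19.3% of Atg4d (Kri1) and 17.3% of Sqstm1 (Mrnip). A gene on the same strand, Gm29253, shared 31.8% of those of Atg9a. Reads in these stretches may not have been told apart.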

How the data were processed

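Each library has expected counts, TPM and FPKM columns deposited by the authors, per the file headers, beside a DESeq2 comparison with log2 fold changes, p-values and q-values. The aligner was HISAT, per the submitters' processing notes; version, counting tool and build: not given in the sources used here. Deposited FPKM values were not analysed. Positions were read as GRCm38, since 18912 of 18930 genes matched by Ensembl identifier overlapped their GENCODE gene. One emptied line of the table was not analysed, and 0 per-library columns were left unmatched.

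Expected counts were rounded, filtered with filterByExpr (15174 genes left, all 36 members among them), scaled with TMM and compared by the quasi-likelihood test of edgeR 4.0.16 in R 4.3.3, group as single term, Benjamini-Hochberg adjustment over the 15174 genes and a threshold of 0.05. The SE is the absolute log2 fold change over the square root of F. Log2 CPM for scores and ratios carry a prior count of 2. The code was tested on simulated data. Libraries held 20183024 to 20606007 counts, and the SE covers counting error and the spread between libraries together.

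The members and the lists (6 pathway, 7 marker lists) were chosen with earlier results of these data known. 1 further gene is not reported here and is left out of the list counts. Library by library values are given, by rule, for the 14 called members with the largest absolute change, and also for Atg4b, Atg5, Fundc1, Bnip3l, Ddit4 and Sesn1, chosen after their values were seen, and the 3 smallest p are named in each pathway list. Alternatives used DESeq2 1.42.0 and limma 3.58.1 (voom with sample weights, and limma-trend on log2 of TPM plus 1 or plus 0.1), other size factors, no filter, 2 covariates and each library left out.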

Additional observations from a re-analysis of the deposited data

Results flagged for a closer look

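Among 72 groups of 5 values (36 members in both groups) 2 held a library far from the rest by Dixon's criterion, where chance flags about 1 in 20. Vehicle replicate 3 had 44.9 CPM of Ulk2, above 37.9 to 39.2 CPM in the other vehicle libraries, and vehicle replicate 10 had 60.7 CPM of Rb1cc1, below 73.8 to 77.5 CPM in the other vehicle libraries.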

How the results depend on the processing

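No paired analysis was possible because the groups share a single sample number, 10. With each library left out, 16 to 19 members were called higher and 0 to 2 lower, 16 of the 20 called members kept their call each time, and Pik3c3, Atg4b, Atg5 and Fundc1 did not. The count of members called lower was 1 with no filter on low counts, 1 under limma-voom, 1 with the skeletal muscle covariate and 0 with the cartilage covariate. With the cartilage covariate edgeR called 0 members higher, and 0 genes higher and 0 lower in the whole table, with 1795 genes at an unadjusted p under 0.05 (6 members). The cartilage score did not overlap between the groups, so this fit cannot separate it from group, and the cause was not tested. DESeq2, other size factors and TPM moved the 18 members called higher to between 17 and 19. Pik3c3 and Atg4b lost their call in every fit on TPM and with the skeletal muscle covariate. For Pik3c3 the log2 fold change was 0.13 on TPM plus 1 and 0.14 on TPM plus 0.1, against 0.27 in the main fit.

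Signs turned for members not called. With the cartilage covariate the log2 fold change was 0.07 for Ulk2, 0.09 for Pik3r4, 0.08 for Atg3, 0.06 for Atg4a, 0.12 for Atg4c, −0.08 for Atg12, −0.13 for Tbk1 and −0.26 for Wipi1. Wipi1 was also at −0.05 with the muscle covariate and at −0.02 in all 3 fits on TPM. With each library left out, Wipi1 ranged from −0.12 to 0.10, Pik3r4 from −0.04 to 0.02, Atg4a from −0.07 to 0.01, Atg4c from −0.19 to 0.02 and Optn from −0.06 to 0.03.

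For the log2 ratios, leaving out each library gave 0.60 to 0.78 for Ulk1/Ulk2, 0.96 to 1.25 for Gabarapl1/Gabarap and 0.94 to 1.35 for Bnip3/Bnip3l, each losing its call in 4 of 10 cases. It gave −0.41 to −0.21 for Wipi1/Wipi2, 0.51 to 0.80 for Gabarapl1/Gabarapl2, −0.41 to −0.20 for Atg4c/Atg4b and 0.13 to 0.21 for Sqstm1/Nbr1, each gaining a call in 1 case, and −0.12 to 0.02 for Map1lc3a/Map1lc3b. Ratios of TPM changed no call.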

Other observations

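The deposited strand differed from GENCODE's for 6 of the 36 members, Bnip3 among them, and for 2537 of 18865 genes compared by symbol. Strands above are those of RefSeq. A pair of further FoxO genes, named after their values were seen, was called higher by edgeR: Foxo3, at 104 ± 16.9 CPM in antagonist and 77.8 ± 5.90 CPM in vehicle libraries, and Foxo6, at 11.9 ± 2.79 CPM in antagonist and 5.97 ± 2.86 CPM in vehicle libraries (SD, n = 5 each), with log2 fold changes of 0.42 ± 0.11 and 0.99 ± 0.28 (SE).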
